A study of Mus musculus with 9 samples.

Results

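The rows described here are 10 mature miRNAs, of 1140 rows in the table of mouse liver miRNAs, that come from 7 hairpins on chromosome 12 between the non-coding genes Meg3 and Rian: both arms of mmu-miR-127, both of mmu-miR-434 and both of mmu-miR-3071, with mmu-miR-337-5p, mmu-miR-540-3p, mmu-miR-431-5p and mmu-miR-136-3p. They are grouped here under the name Rtl1 antisense miRNAs of the Dlk1-Dio3 domain, which the annotation given below bears out for 6 of them. They were chosen by name, with their rise in injured liver and their level after withdrawal already known from earlier results of these data. Their levels and fold changes are therefore given as a description with no p-value. Each count of these rows called in the main fits stands beside the share of all rows called in the same comparison.

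The libraries are of liver small RNA from 9 mice, all male C57BL/6, in 3 groups of 3. Control mice received normal saline by intraperitoneal injection for 8 weeks. TAA mice received thioacetamide (TAA), a compound that the liver turns into a toxic product and that causes fibrosis on repeated dosing, by the same route for 8 weeks. Recovery mice received TAA for 8 weeks and were then kept for 8 further weeks without it, which is the study's model of spontaneous reversal. No transgene or mutant allele is named for any group. The recovery mice were older at death than both other groups and none of the 9 samples is from a saline group kept as long, so that recovery and the added weeks cannot be told apart.

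The Dlk1-Dio3 domain is imprinted. Protein-coding genes such as Dlk1 and Rtl1 are transcribed from the paternal chromosome, and the non-coding genes Meg3 and Rian and the domain's miRNAs from the maternal chromosome. Rtl1 is a gene derived from a retrotransposon that is needed in the placenta. Several of the miRNAs lie on the strand opposite to it, so they match its mRNA base for base and can direct its cleavage. The domain is active in the embryo and placenta and largely quiet in adult liver. A miRNA hairpin is cut into a 5p and a 3p arm, and either can be loaded as the guide strand, whose bases 2 to 8, the seed, pair with target mRNAs.

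The annotation did not place all 10 rows antisense to Rtl1. In GENCODE M21 (GRCm38), Rtl1 occupied chr12:109589193-109600330 on the minus strand, between Meg3 at chr12:109541001-109571726 and the start of Rian at 109603940, both on the plus strand. The hairpins Mir431 (chr12:109590447-109590537), Mir127 (chr12:109592846-109592915), Mir434 (chr12:109594506-109594599) and Mir136 (chr12:109595327-109595388) lay on the plus strand within the coding exon of Rtl1. These 4 hairpins give 6 of the 10 rows, and each of the 6 had a perfect complement in the Rtl1 transcript. Mir3071 (chr12:109595318-109595397) lay on the minus strand, the strand of Rtl1 itself, and its 2 rows were identical to a stretch of the transcript in place of complementary to it. Mir337 (chr12:109585789-109585885) and Mir540 (chr12:109586080-109586146) were on the plus strand but 3308 and 3047 bp beyond the end of Rtl1 in this annotation. RefSeq's record of Rtl1 is longer, chr12:109564900-109604418, and spans them. The 10 rows are called the proximal rows below, and the 6 plus-strand rows within the Rtl1 exon its antisense rows.

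All 10 rows matched a RefSeq mature sequence by name (build GRCm38.p6). The 6 antisense rows are shown 5′ to 3′ in the order of their hairpins, with the seed in capitals, because these are the strands that match the Rtl1 mRNA in full.
mmu-miR-431-5p: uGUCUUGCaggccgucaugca
mmu-miR-127-5p: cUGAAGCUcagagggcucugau
mmu-miR-127-3p: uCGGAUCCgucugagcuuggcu
mmu-miR-434-5p: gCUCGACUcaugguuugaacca
mmu-miR-434-3p: uUUGAACCaucacucgacuccu
mmu-miR-136-3p: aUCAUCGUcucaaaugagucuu

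The other 4 rows are shown in the same way.
mmu-miR-337-5p: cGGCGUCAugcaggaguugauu
mmu-miR-540-3p: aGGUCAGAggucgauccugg
mmu-miR-3071-5p: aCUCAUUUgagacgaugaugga
mmu-miR-3071-3p: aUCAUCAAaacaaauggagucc
The 10 seeds were all different. No proximal row shared its seed with any other row of the table that had a RefSeq sequence, so the rows form a group by position and not by shared seed. Lengths ran from 20 to 22 bases.

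mmu-miR-136-3p and mmu-miR-3071-5p are not separate by sequence. Their hairpins are transcribed from opposite strands of the same stretch, and 19 bases of each mature form, in capitals here, are the exact complement of the other.
mmu-miR-136-3p: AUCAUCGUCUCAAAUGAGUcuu
mmu-miR-3071-5p: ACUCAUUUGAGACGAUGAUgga
The table listed 3763 counts for mmu-miR-136-3p and 3721 for mmu-miR-3071-5p over the 9 libraries, a difference of 0.561% of their total, and at most 10 counts in any library. They were taken as one measurement, and mmu-miR-3071-5p is left out of every sum below. The other arms behaved otherwise, though they overlap by 20 bases.
mmu-miR-136-5p: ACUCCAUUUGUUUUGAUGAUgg
mmu-miR-3071-3p: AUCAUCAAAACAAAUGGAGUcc
Here mmu-miR-3071-3p held 382 counts and mmu-miR-136-5p 118, a ratio of 3.24, and mmu-miR-3071-3p was the higher in 9 of 9 libraries. Whether the counting used the strand of the reads is not given in the sources used here. Of 25 pairs of rows in the whole table whose mature forms overlap by at least 15 bases on opposite strands, 12 differed by under 2% of their total. The reads of mmu-miR-136-3p, which has the Rtl1-antisense orientation, and of mmu-miR-3071-5p, which has the sense orientation, thus cannot be told apart in these values.

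Libraries held 9071847 to 12983378 counts, so 3 counts corresponded to 0.185 to 0.399 counts per 1000000 (CPM). CPM values are scaled by TMM factors, which align the bulk of the rows between libraries. These factors were 0.739 to 0.887 in control and recovery livers and 1.432 to 1.633 in TAA livers, and the main comparisons of recovery with TAA are also given relative to plain library totals (the TPM values of the table). The hepatocyte markers (miR-122-5p, miR-192-5p, miR-194-5p, miR-148a-3p and miR-802-5p, the first being the defining miRNA of liver) summed to 516100 to 534700 CPM in control, 149200 to 178000 in TAA and 426800 to 508600 in recovery livers. Relative to library totals, the sum was also lower in every TAA liver than in every control liver, but by a smaller ratio. On the TMM scale 4 of the 5 lay below every control liver in TAA, the exception being miR-802-5p, and 2 of the 5 did in recovery. One library stood apart: TAA 3 held 67184 counts of the muscle miRNA miR-1a-3p, whereas no other library had over 488, and results that rest on it are also given without it. In bulk tissue, fewer cells of a type and less RNA per cell cannot be told apart.

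The proximal rows were low in control liver, high in TAA liver and still high after recovery. Summed over 9 rows, they reached 37.2, 73.0 and 43.5 CPM in the 3 control livers, 250.1, 722 and 635 CPM in the TAA livers, and 336.7, 416 and 541 CPM in the recovery livers. Control and TAA livers did not overlap, nor did control and recovery livers, while on this scale the recovery values all fell between the lowest and the highest TAA liver. The means were 51.2 ± 19.1 CPM (SD, n = 3) in control, 536 ± 251 in TAA and 431.3 ± 103 in recovery, or 10.5 times control in TAA and 8.42 times control in recovery. TAA 2 had the highest level, and the TAA mean was 9.49 times control without TAA 3. Relative to library totals the sum was 358 to 1179 TPM in TAA and 258 to 474 TPM in recovery livers, with recovery 1 below every TAA liver, and control livers, at 29.5 to 53.9 TPM, were still apart from both.

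**Figure D1:**
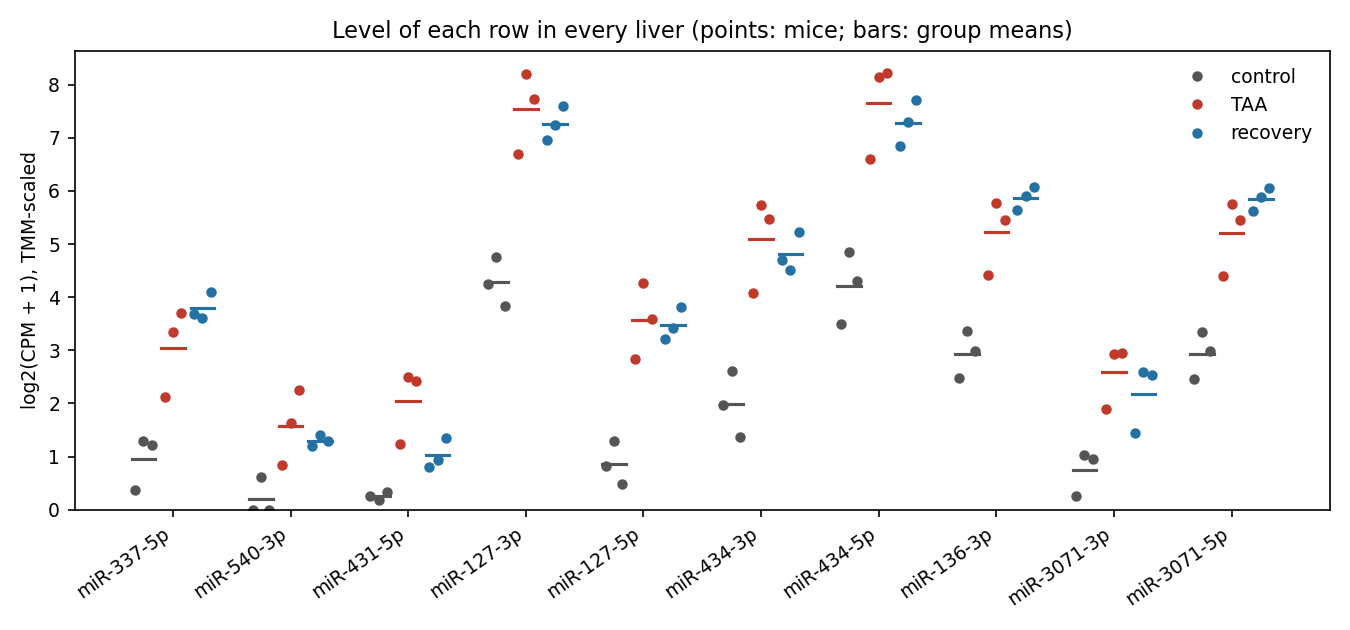
Level of each of the 10 rows in every liver as log2(CPM + 1) on the TMM scale, with a point for each mouse and a bar for the mean of each group of 3. Every row's control points lie below all its TAA and recovery points, while TAA and recovery points overlap in all 10 rows.

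Among the antisense rows, mmu-miR-127-3p and mmu-miR-434-5p carried most of the signal. mmu-miR-127-3p, the main arm of a miRNA that is known to repress Rtl1 in the placenta, stood at 18.1, 26.0 and 13.2 CPM in control, 103, 292 and 212 CPM in TAA, and 124, 150.2 and 194 CPM in recovery livers. On this scale all recovery values lay within the TAA range. In TPM the lowest recovery liver, at 94.99, lay below the lowest TAA liver, at 148, and above the highest control liver, at 19.2. mmu-miR-434-5p had 10.2, 28.0 and 18.9 CPM in control, 96.3, 283 and 299 CPM in TAA, and 115, 157 and 208 CPM in recovery livers. Again the TAA and recovery livers overlapped and the control livers lay apart. Together these 2 rows made up 73.7% to 76.0% of the summed counts in control, 79.6% to 80.4% in TAA and 70.9% to 74.2% in recovery livers.

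The partner arms from the same hairpins followed at lower levels. mmu-miR-434-3p stood at 2.92, 5.15 and 1.597 CPM in control, 16.0, 52.5 and 43.3 CPM in TAA, and 25.0, 21.7 and 36.3 CPM in recovery livers. mmu-miR-127-5p rested on 8, 11 and 3 counts in control livers, with a mean of 0.876 ± 0.533 CPM (SD, n = 3), against 11.8 ± 6.03 CPM in TAA and 10.3 ± 2.41 CPM in recovery livers. In both rows the lowest TAA liver was TAA 1, and no TAA or recovery liver reached down to the control range.

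mmu-miR-136-3p, from the hairpin nearest the start of the Rtl1 coding region, kept a higher level in recovery than in TAA liver by its mean. It had 4.57, 9.24 and 6.92 CPM in control, 20.4, 53.7 and 43.1 CPM in TAA, and 49.1, 58.8 and 66.5 CPM in recovery livers. The lowest recovery liver lay below the highest TAA liver, so the groups overlapped. mmu-miR-431-5p, from the hairpin farthest downstream in the Rtl1 coding exon, went the other way. It was read 2, 1 and 2 times in the control livers, which is under the floor of 3 counts in each, 22, 69 and 65 times in the TAA livers, and 7, 10 and 17 times in the recovery livers. In CPM these were 1.36, 4.66 and 4.36 in TAA and 0.748, 0.918 and 1.56 in recovery livers, so that recovery 3 overlapped with TAA 1 only.

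Levels of mmu-miR-337-5p, mmu-miR-540-3p and mmu-miR-3071-3p were all low. mmu-miR-337-5p had 0.292, 1.45 and 1.33 CPM in control, 3.33, 9.18 and 11.95 CPM in TAA, and 11.9, 11.2 and 16.0 CPM in recovery livers, from 178 counts or fewer. Its mean was 1.03 ± 0.638 CPM (SD, n = 3) in control, 8.15 ± 4.40 in TAA and 13.0 ± 2.62 in recovery livers, the same order as mmu-miR-136-3p. mmu-miR-540-3p, the rarest row, was not read in control 1 and control 3, was read 4 times in control 2, and held 13, 31 and 56 counts in TAA and 12, 18 and 16 in recovery livers. mmu-miR-3071-3p, on the sense strand, rested on 2, 8 and 7 counts in control, 44, 98 and 100 in TAA, and 16, 55 and 52 in recovery livers.

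The TAA and control comparison asks which miRNAs move with fibrosis. All 10 rows were called higher in TAA liver by the edgeR quasi-likelihood fit (false discovery rate under 0.05 and a fold change of at least 2), where 25.0% of the 420 rows tested were called higher. All 10 also had no overlap between TAA and control livers, against 39.3% of all rows tested. The choice of rows used this contrast, so nothing follows from either count. Rows with few control counts could also pass the filter on low counts through their TAA counts alone. Those that did so include mmu-miR-431-5p, with 2, 1 and 2 counts in control, mmu-miR-540-3p, with 0, 4 and 0, and mmu-miR-3071-3p, with 2, 8 and 7. The log2 fold changes ran from 2.44 to 3.99 with a median of 3.40, beside 0.11 for all rows tested.

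The rows differed in size within that range. mmu-miR-431-5p had the largest log2 fold change, 3.99 (SE 0.72), and mmu-miR-136-3p the smallest, 2.44 (SE 0.44). The arms of Mir127 had 3.34 (SE 0.46) for mmu-miR-127-3p and 3.67 (SE 0.59) for mmu-miR-127-5p, and those of Mir434 had 3.46 (SE 0.59) for mmu-miR-434-3p and 3.51 (SE 0.55) for mmu-miR-434-5p. Within a hairpin the arms lay closer than their standard errors. Relative to library totals the fold changes were larger, with a median of 4.54, since that scale moves the median of all rows from 0.11 to 1.23. Without TAA 3, 9 of the 10 rows were called, at a median of 3.17, and the row lost was mmu-miR-540-3p.

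**Figure D2:**
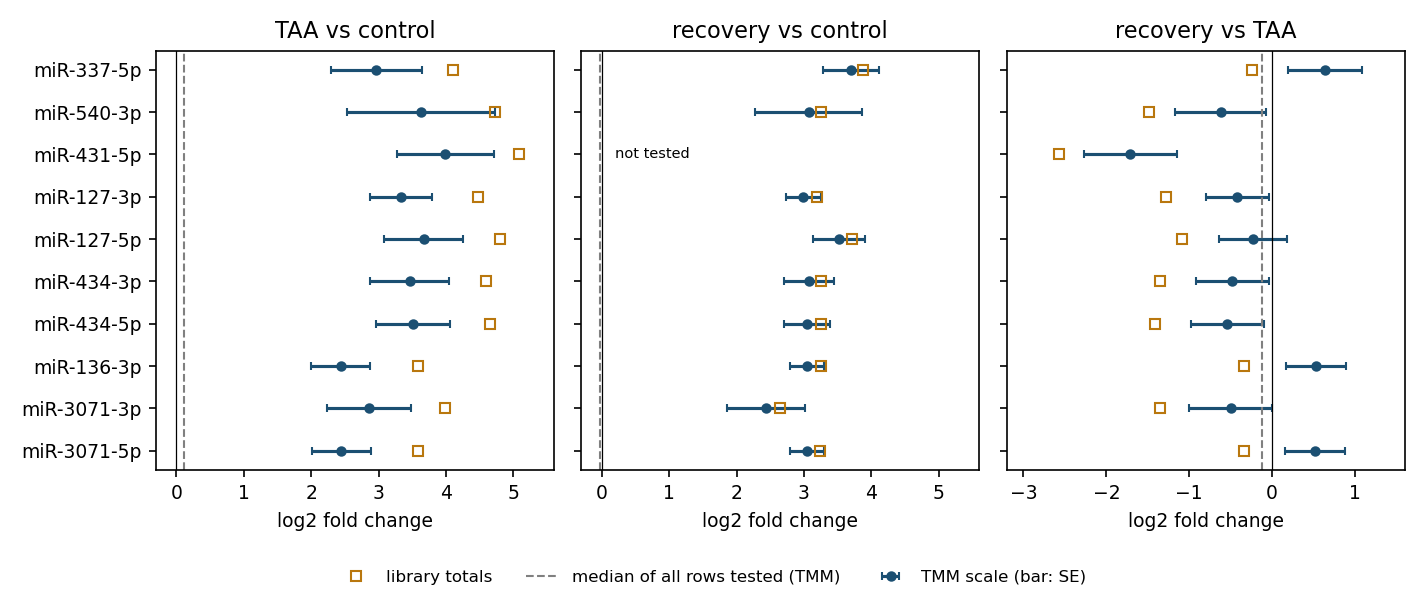
Log2 fold change of each row in the 3 comparisons, with filled points for the edgeR fit on the TMM scale (bars are SE, 3 livers a group), open squares for scaling by library totals and a dashed line at the median of all rows tested. Points lie between 2.44 and 3.99 for TAA against control and between 2.44 and 3.70 for recovery against control, and on both sides of 0 for recovery against TAA, where the squares all lie below 0.

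Recovery livers were set against control livers to see what was left after 8 weeks without TAA. Of the 10 rows, 9 had enough counts to be tested, and all 9 were called higher in recovery, where 10.5% of the 391 rows tested were. The row not tested, mmu-miR-431-5p, had 2 counts or fewer in every control liver and 7, 10 and 17 counts in the recovery livers. Rows with few control counts could pass the filter on their recovery counts alone. mmu-miR-540-3p did so, with 0, 4 and 0 counts in control and 12, 18 and 16 in recovery livers. So did mmu-miR-3071-3p, with 2, 8 and 7 counts in control and 16, 55 and 52 in recovery livers. No row overlapped between control and recovery livers, against 17.4% of all rows tested, a contrast that was also known when the rows were chosen. The log2 fold changes had a median of 3.05, beside -0.03 for all rows tested, with 3.70 (SE 0.42) for mmu-miR-337-5p as the highest and 2.44 (SE 0.58) for mmu-miR-3071-3p as the lowest. The main antisense rows lay close together, at 2.99 (SE 0.26) for mmu-miR-127-3p, 3.05 (SE 0.34) for mmu-miR-434-5p and 3.05 (SE 0.25) for mmu-miR-136-3p. mmu-miR-540-3p and mmu-miR-3071-3p lost the call without recovery 2, without recovery 3 or without control 1, with 7 rows then called each time. mmu-miR-540-3p also lost it without recovery 1, without control 3 and in the fit of all 9 samples.

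Recovery and TAA livers were then compared directly. 1 of the 10 rows was called, mmu-miR-431-5p, which was lower in recovery, where 24.8% of the 440 rows tested were called in either direction. 0 of the 10 rows had groups that did not overlap in CPM, against 53.4% of all rows tested. In TPM 1 row did not overlap, mmu-miR-431-5p, at 1.94 to 7.61 in TAA and 0.573 to 1.36 in recovery livers. The log2 fold change of mmu-miR-431-5p was -1.71 (SE 0.56), and the call was lost on leaving out any recovery liver, TAA 2 or TAA 3. mmu-miR-127-3p had -0.42 (SE 0.38), mmu-miR-434-5p -0.54 (SE 0.44), mmu-miR-136-3p 0.53 (SE 0.36) and mmu-miR-337-5p 0.64 (SE 0.45). The median over the 10 rows was -0.45, beside -0.12 for all rows tested.

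The direction of this last comparison depended on the scale for some rows. Relative to library totals, all 10 log2 fold changes were below 0, with a median of -1.32, while the median of all rows went from -0.12 to -0.98. That scale called 5 of the 10 rows lower, beside 203 of all 440 rows tested, so nothing about these rows follows from the count. On that scale mmu-miR-136-3p had -0.34 and mmu-miR-337-5p -0.24, both opposite in sign to the TMM values. In TPM the lowest recovery liver lay below every TAA liver in 7 of the 10 rows. Relative to the median of all rows, both stood higher in recovery on either scale.

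The share of the rise left after withdrawal puts these values on one scale: the recovery level minus the control mean, as a percentage of the TAA mean minus the control mean. For the summed rows it was 78.5 ± 21.2% (SD over 3 recovery mice), with 58.9% in recovery 1, 75.4% in recovery 2 and the highest value in recovery 3. It was 74.8 ± 19.2% for mmu-miR-127-3p and 68.0 ± 22.5% for mmu-miR-434-5p, 159 ± 27.2% for mmu-miR-136-3p, 168 ± 36.7% for mmu-miR-337-5p and 26.9 ± 13.1% for mmu-miR-431-5p. In each recovery mouse mmu-miR-431-5p lay below, and mmu-miR-136-3p and mmu-miR-337-5p above, both main antisense rows. The other rows ran from 63.2% for mmu-miR-540-3p to 86.7% for mmu-miR-127-5p, apart from mmu-miR-3071-5p, which repeats mmu-miR-136-3p. Relative to library totals the share for the summed rows was 40.2 ± 13.2%, and without TAA 3 on the TMM scale it was 87.4%.

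**Figure D3:**
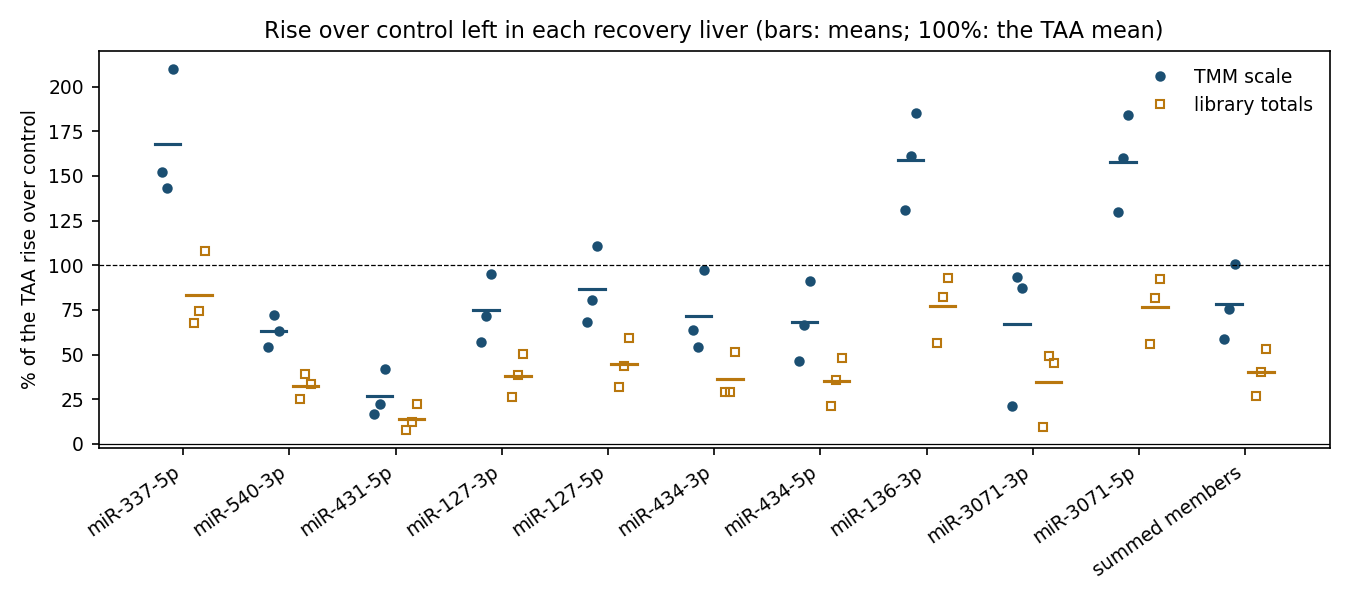
Share of the rise over control that was left in recovery livers, in percent, for each row and for the summed rows (summed members), with a point for each of the 3 recovery mice and a bar at their mean, on the TMM scale (filled) and relative to library totals (open), where the dashed line at 100% is the TAA mean. On the TMM scale mmu-miR-431-5p lies lowest of the 10 rows by its mean at 26.9% and mmu-miR-337-5p highest at 168%, and every row's mean is lower relative to library totals.

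Ratios between rows of the same library do not depend on the scaling. They were looked at after the values were seen and are a description. Per 100 counts of mmu-miR-127-3p there were 25.3, 35.5 and 52.5 counts of mmu-miR-136-3p in control, 19.8, 18.4 and 20.4 in TAA, and 39.6, 39.1 and 34.4 in recovery livers. The TAA livers were thus below all 6 others. For mmu-miR-431-5p the ratios were 1.32 to 2.06 in TAA and 0.603 to 0.805 in recovery livers, which did not overlap, and control livers, with at most 2 counts of it, ran from 0.508 to 2.02. For mmu-miR-434-5p the ratio covered 56.5 to 143 in control, 93.4 to 141 in TAA and 92.5 to 107 in recovery livers, so that the most abundant pair kept overlapping proportions.

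**Figure D4:**
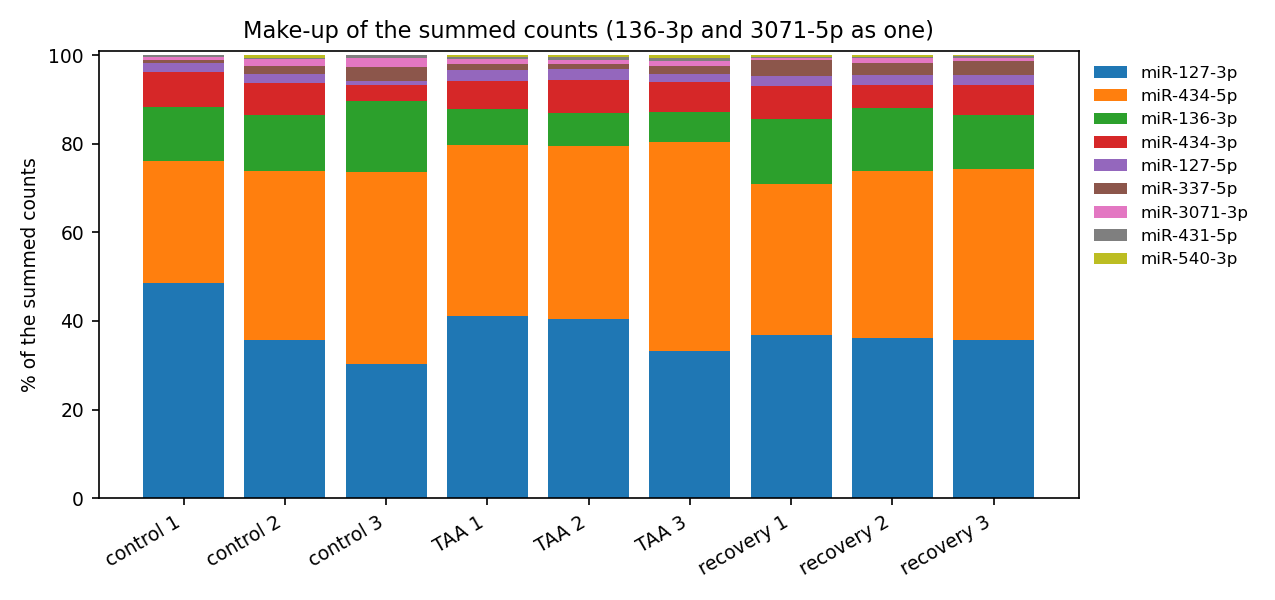
Share of each row in the summed counts of the 9 rows, in percent, in each of the 9 livers, with mmu-miR-136-3p and mmu-miR-3071-5p taken as one. mmu-miR-127-3p and mmu-miR-434-5p make up 70.9% to 80.4%, and the share of mmu-miR-136-3p is 6.79% to 8.16% in TAA livers against 12.3% to 15.9% in the others.

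The spread between mice was wide and shared by the rows. TAA 1 was the lowest TAA liver in 9 of 9 rows, with TAA 2 the highest in 5 and TAA 3 in 4. Recovery 3 was the highest recovery liver in 7 rows and recovery 1 the lowest in 7, and control 2 was the highest control liver in 8. The rows come from the same libraries, so these counts are not independent. The median coefficient of variation over the 9 rows was 55.7% in control, 51.0% in TAA and 23.3% in recovery livers, beside 15.2%, 19.9% and 17.1% for the 402 rows of at least 1 CPM. Several rows held under 12 counts in each control liver.

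The use of the arms differed between hairpins. Mir127 gave mostly its 3p arm and Mir434 mostly its 5p arm. The hairpins are shown with their arms in capitals, 5p first.
Mir127: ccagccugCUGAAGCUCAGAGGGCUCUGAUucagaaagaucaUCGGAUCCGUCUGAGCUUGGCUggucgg
Mir434: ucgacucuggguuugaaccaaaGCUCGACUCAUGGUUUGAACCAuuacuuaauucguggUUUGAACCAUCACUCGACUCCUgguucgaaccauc
Pooled over each group, the 5p share of Mir127 was 4.37% in control (95% Clopper-Pearson interval 2.76 to 6.53), 5.51% in TAA (5.06 to 5.98) and 6.21% in recovery livers (5.57 to 6.90). That of Mir434 was 85.0% (81.7 to 87.9), 85.9% (85.2 to 86.5) and 85.4% (84.4 to 86.3). These intervals cover counting error only, and not the spread between mice. In single livers the 5p share of Mir127 was 2.94% to 5.29% in control, 4.95% to 5.86% in TAA and 6.03% to 6.30% in recovery, so that the recovery livers lay above all 6 others. The control values rest on 3 to 11 counts of the 5p arm, and this was a description made after the values were seen, with no test.

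Only Mir434 held at least 10 counts of both arms in every library, so its arm ratio was the single measure tested. The mean log2 ratio of 3p to 5p was -2.58 ± 0.87 (SD, n = 3) in control, -2.60 ± 0.18 in TAA and -2.52 ± 0.33 in recovery livers. TAA and control differed by -0.03 (SE 0.51, exact permutation p = 0.9, two-sided), recovery and TAA by 0.08 (SE 0.22, exact p = 0.8), and recovery and control by 0.05 (SE 0.54, exact p = 1.0), with all 3 adjusted p-values at 1.0. With 3 livers against 3 the smallest p that can be reached is 0.1. No difference of any size could therefore have passed a threshold of 0.05, and the test says nothing on whether arm use was stable.

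The remaining arms of these hairpins were rare. mmu-miR-136-5p was read 1, 3 and 2 times in control, 10, 35 and 28 times in TAA, and 4, 23 and 12 times in recovery livers. mmu-miR-337-3p, mmu-miR-431-3p and mmu-miR-540-5p had 0 counts in each control liver. They reached at most 5, 2 and 3 counts in any library. mmu-miR-337-3p matched the opposite-strand row mmu-miR-3544-5p count for count, at 15 in total each, whereas mmu-miR-337-5p had 800 counts and its own opposite-strand row mmu-miR-3544-3p had 4.

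**Figure D5:**
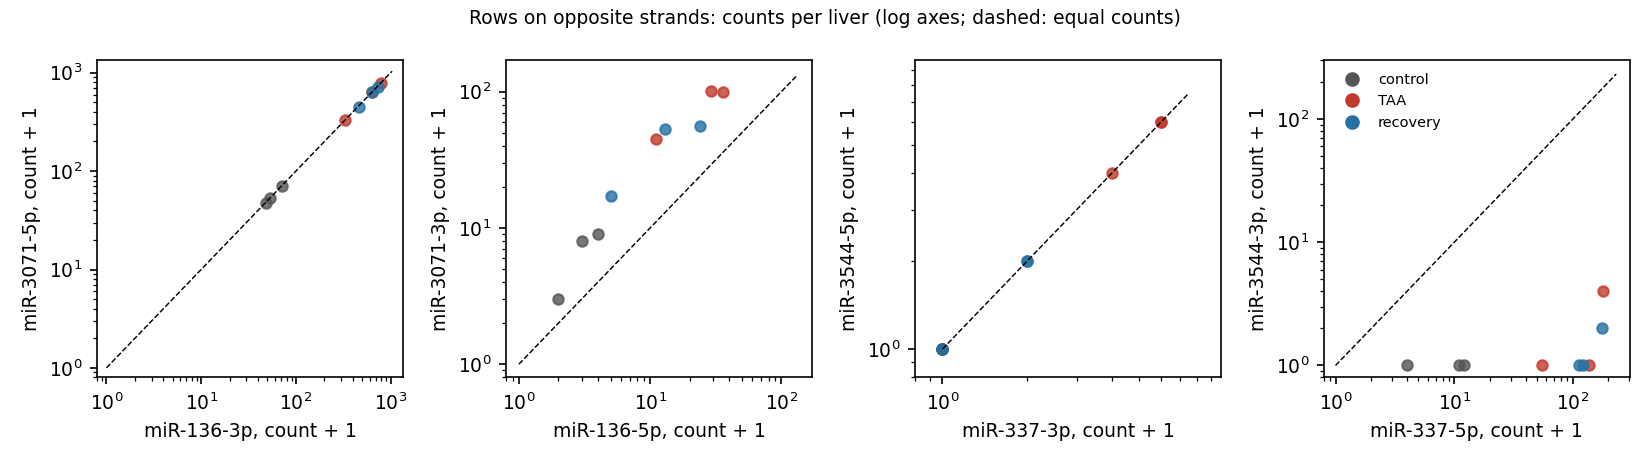
Counts plus 1 on log axes of 4 opposite-strand pairs of rows, one row of the pair against the other, with a point for each of the 9 libraries coloured by group and a dashed line at equal counts. mmu-miR-136-3p and mmu-miR-3071-5p lie on the line of equality, with at most 10 counts between them, while mmu-miR-3071-3p lies above mmu-miR-136-5p in 9 of 9 libraries.

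RefSeq placed 16 hairpins from the start of Meg3 to the start of Rian, including Mir770 within Meg3 itself. Of these, 13 had a row in the table, with 25 rows in all. The 15 rows that are not among the 10 had a highest count of 45 in any library (mmu-miR-433-3p), just below the weakest of the 10, mmu-miR-540-3p, at 56. mmu-miR-433-3p is another Rtl1-antisense miRNA. Its counts were 1, 0 and 1 in control, 9, 45 and 40 in TAA, and 6, 6 and 13 in recovery livers. Of the 15 rows, 2 passed the filter on low counts in recovery against TAA, at log2 fold changes of -1.42 (mmu-miR-433-3p) and -0.42 (mmu-miR-136-5p), with 0 called, and 0 passed it in either comparison with control.

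Farther along the same domain, the miR-379/410 cluster (54 rows, the largest miRNA cluster of the domain) had the same outline at a higher level. It summed to 169 ± 63.2 CPM in control, 1365 ± 561 in TAA and 1493 ± 367 in recovery livers (SD, n = 3). Recovery was 1.09 times TAA there, and 0.805 times TAA for the proximal rows. By library totals these ratios were 0.583 and 0.429, so that the direction for the miR-379/410 cluster turned with the scale. Against control, 26 of its 27 rows tested were called higher in TAA and 25 of 27 in recovery. The miR-370 and miR-341 rows within Rian (3 rows) summed to 1.004 ± 0.516 CPM in control, 24.1 ± 13.4 in TAA and 8.35 ± 1.998 in recovery livers, with recovery at 0.347 times TAA, or 0.183 times relative to library totals.

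Within a library, the proximal rows had 35.3, 31.5 and 25.9 counts per 100 counts of the miR-379/410 cluster in control, 34.7, 41.1 and 39.2 in TAA, and 28.4, 29.8 and 28.5 in recovery livers. The recovery livers were below all TAA livers in this ratio. Control livers overlapped with recovery livers and, through control 1, with TAA 1. The share of the rise left was 111 ± 30.7% for the miR-379/410 cluster and 31.8 ± 8.66% for the miR-370 and miR-341 rows, so that mmu-miR-431-5p at 26.9% lay nearer the latter and mmu-miR-136-3p at 159% above the former. By library totals these shares were 55.7% and 16.6%, beside 77.2% for mmu-miR-136-3p and 14.2% for mmu-miR-431-5p. No test was made of these differences.

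The 5 rows whose profile over the 9 libraries was most like that of the summed proximal rows were all from the miR-379/410 cluster. Likeness was taken as the root mean square difference of log2(CPM + 1), each centred on its control mean, among 221 rows of at least 10 CPM. The values were 0.25 for miR-411-5p, 0.25 for miR-381-3p, 0.26 for miR-409-3p, 0.26 for miR-379-5p and 0.29 for miR-541-5p, against a median of 2.70 for all candidates. Among the 212 rows that do not lie between Meg3 and Mirg, the non-coding gene at the far end of the clusters, the nearest were miR-429-3p at 1.44, miR-200a-5p at 1.44, miR-200b-3p at 1.45, miR-200a-3p at 1.47 and miR-200c-3p at 1.61. These 5 belong to the miR-200 family, which marks epithelial cells and, in liver, bile ducts. They stood at 2.05 to 2.88 log2 units over control in TAA liver, beside 3.28 for the summed proximal rows, and at 0.75 to 1.05 in recovery liver, beside 3.08.

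Marker miRNAs of other cell types were summed beside these levels, and the part of these cells in the result was not tested. The 5 biliary markers, all of the miR-200 family, ran from 582 to 764 CPM in control, 3332 to 5534 in TAA and 1240 to 1415 in recovery livers. This sum, mostly miR-200a-3p and miR-200b-3p, was highest in TAA 1, the lowest TAA liver for the proximal rows. Within the list, miR-200a-3p, miR-200b-3p and miR-429-3p were highest in TAA 1. miR-200c-3p (57.8 to 109.1 CPM in TAA) and miR-141-3p (6.48 to 12.9) were lowest there. All 5 lay above every control liver in TAA, and 4 of the 5 in recovery, the exception being miR-200c-3p. The 5 leukocyte markers ran from 190 to 211 CPM in control, 274 to 319 in TAA and 146 to 222 in recovery livers. All 5 lay above every control liver in TAA and 1 of the 5 in recovery, miR-155-5p, at 5.02 to 7.07 CPM against 2.63 to 3.73 in control.

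The sum of the 6 mesenchymal markers mostly consists of miR-143-3p. On the TMM scale it overlapped in all groups, at 25490 to 31120, 18050 to 39540 and 21880 to 35810 CPM. Relative to library totals, the sum was higher in every TAA liver than in every control liver. On the TMM scale the members did not all overlap. Of the 6, 4 lay above every control liver both in TAA and in recovery: miR-199a-3p, miR-199a-5p, miR-199b-5p and miR-214-3p, which are known from stellate cells and myofibroblasts. miR-199a-3p stood at 198 to 235 CPM in control, 534 to 880 in TAA and 282 to 332 in recovery livers. miR-214-3p stood at 13.1 to 18.5, 65.3 to 68.0 and 20.1 to 22.8 CPM. These 4 markers lay on the same side of control as the proximal rows in both groups. Among the 3 TAA livers, all 4 were lowest in CPM in TAA 2, where the summed proximal rows were highest. For miR-214-3p the TAA livers hardly differed, at 65.3 to 68.0 CPM. A link between the markers and the proximal rows was not tested.

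Some markers stand for sources in which the domain is known to be active in the adult. On the TMM scale the sum of the 4 neural and endocrine markers, nearly all of it miR-7a-5p, overlapped in all groups. It ran from 1858 to 2435 CPM in control, 1913 to 2737 in TAA and 1753 to 2200 in recovery livers. Relative to library totals, this sum was higher in every TAA liver than in every control liver. Within the list, miR-9-5p (4.39 to 4.88 CPM in control, 4.995 to 12.95 in TAA) and miR-375-3p (1.33 to 1.58 and 1.69 to 1.75) lay above every control liver in TAA, and 0 of the 4 did in recovery. The defining brain miRNA, miR-124-3p, had 0 counts in each control and recovery liver and at most 2 in a TAA liver. The 6 striated muscle markers summed to 18.9 to 50.9 CPM in control, 15.7 and 19.98 in TAA 2 and TAA 1, 4740 in TAA 3, and 9.73 to 37.9 in recovery livers. Of these 6, miR-499-5p lay above every control liver in TAA and 0 did in recovery. The 2 gonad and adrenal markers were at 0 in control and at no more than 0.534 CPM in any liver, although miR-202-5p was read in each recovery liver, 2 to 5 times. On the TMM scale the 2 endothelial markers were at 8477 to 8951, 5700 to 6895 and 8347 to 9122 CPM. The 3 red cell markers were at 789 to 1339, 206 to 461 and 329 to 622 CPM. Relative to library totals, the endothelial sum was instead higher in every TAA liver than in every control liver. The red cell sum then overlapped between TAA and control livers.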

How the data were processed

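The deposited table gave, for each of 9 livers, raw read counts and TPM values per mature miRNA, both made by the authors. Reads were mapped with Bowtie (version 1.3.0 in the submitters' processing notes), and the TPM values equalled counts per 1000000 of the library total to within 5e-05. The strand setting of the counting and the treatment of reads with several matches are not given in the sources used here. Counts were tested as deposited in R 4.3.3 with edgeR 4.0.16 (TMM, filterByExpr with a minimum count of 10, quasi-likelihood F test, Benjamini-Hochberg over all rows tested), on the 6 livers of each comparison, and called at a false discovery rate under 0.05 and a fold change of at least 2. DESeq2 1.42.0 and limma 3.58.1 on log2(TPM + 1), other scalings, filters and left-out livers were alternatives. edgeR was tested on simulated data first.

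The rows, marker lists, comparison clusters and tests were chosen with earlier results of these data known. Beside the 10 rows, the text names the other arms of their hairpins, any further row from the start of Meg3 to the start of Rian by count, and the 5 rows most alike in profile. mmu-miR-433-3p was named after its values were seen. mmu-miR-136-3p and mmu-miR-3071-5p were summed as one. Arm ratios had a pseudocount of 0.5 on counts and an exact permutation test. Each library is a separate mouse, so p-values measure the spread between mice. Hairpin positions and sequences came from RefSeq (GRCm38.p6) and genes from GENCODE M21. Same-numbered livers of different groups did not deviate together (correlations of -0.26 to 0.24) and were not paired. Library totals of 9071847 to 12983378 counts put 3 counts at 0.185 to 0.399 CPM.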

Additional observations from a re-analysis of the deposited data

How the results depend on the processing

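Of 123 alternative values, 102 kept their direction, with counts within 1.5 times the value given and medians and shares within 1 SD between replicates (0.53 on the log2 scale for the medians, more than the median of recovery against TAA itself). The arm ratios were held to their direction only. Library totals as the scale moved the median log2 fold change in TAA against control from 3.40 to 4.54 and in recovery against TAA from -0.45 to -1.32. They raised the rows called in recovery against TAA from 1 to 5, where 203 of all 440 rows were called lower and 4 higher. The share of the rise left fell from 78.5% to 40.2%. With limma on log2(TPM + 1), 2 rows were called in recovery against TAA, at a median of -1.02, where 156 of all 440 rows were called lower and 3 higher. A filter at a mean of 10 CPM left fewer rows to test: 5 of 5 called in TAA against control, 0 in recovery against TAA and 5 of 5 in recovery against control. Of all rows, 49 of 233 were then called higher in TAA against control and 13 of 208 in recovery against control. In recovery against TAA, 22 of 247 were called higher and 39 lower.

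On leaving out each liver in turn, 9 to 10, 0 to 1 and 7 to 9 rows were called in TAA against control, recovery against TAA and recovery against control. The medians ran from 3.04 to 3.78, from -0.71 to -0.02 and from 2.80 to 3.35. The share left ran from 60.6% to 97.2%. The Mir434 arm ratio difference changed sign, from -0.49 to 0.37, from -0.08 to 0.25 and from -0.41 to 0.45. In TAA against control, the call of mmu-miR-540-3p was lost without TAA 3, control 1 or control 3. With a replicate block, for which the numbers gave no ground, 10, 1 and 9 rows were called, at medians of 3.30, -0.31 and 3.07, so that no count changed. Depth limited the rows with few control counts, mmu-miR-540-3p and mmu-miR-431-5p above all, whose fold changes rest on 5 counts or fewer over the 3 control livers.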
